A study of Homo sapiens with 18 samples.

Results

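The matrix metalloproteinases (MMPs), the ADAMTS proteases and the tissue inhibitors of metalloproteinases (TIMPs) were examined in RNA-seq data of U87MG, a human glioblastoma line long kept in culture. The genes were taken by name, as every protein-coding gene called MMP plus a number, ADAMTS plus a number, or TIMP1 to TIMP4. This gave 46 of the 58302 genes in the deposited table, namely 23 MMP genes, 19 ADAMTS genes and 4 TIMP genes. Each condition had 2 biological replicates sequenced as RNA, control cells and cells exposed for 72 h to 10 μM Erastin, a small molecule that blocks cystine import by system Xc- and induces ferroptosis. The control libraries are titled WT, and the labels describe the control cells as grown normally. The study's methods name DMSO as the control of its Western blots, so whether the sequenced controls had DMSO is not clear from these sources. All libraries came from the same cell line, so they stand for glioblastoma only as far as this line does.

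MMPs are zinc-dependent endopeptidases that cut collagens, other matrix proteins and many cell surface proteins. Most are secreted as inactive precursors, and the membrane-type MMPs stay anchored at the cell surface. ADAMTS proteases carry a related catalytic domain followed by thrombospondin repeats, and their best known substrates are proteoglycans such as versican and aggrecan and the amino-terminal propeptides of fibrillar procollagens. TIMPs bind the active site of these enzymes, and TIMP2 also takes part in the activation of the MMP2 precursor by MMP14. In glioblastoma these families are known for their part in remodelling the brain matrix during invasion.

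Promoter sequences from RefSeq (GRCh38.p14) were read for 27 of the 46 genes. The remaining 19 were MMP1, MMP2, MMP3, MMP9, MMP12, MMP13, MMP16, MMP17, MMP19, MMP25, MMP28, ADAMTS1, ADAMTS4, ADAMTS5, ADAMTS8, ADAMTS9, ADAMTS15, ADAMTS16 and TIMP2. Windows of 120 bases before the annotated start are shown because they hold the short motifs of MMP promoters or belong to genes whose levels are described in detail. Capitals mark TGANTCA (a loose form of the AP-1 motif, with any middle base, searched alike on both strands), TATAAA on the strand of the gene, and GGGCGG or its reverse complement CCGCCC. The sequences run 5′ to 3′ on the strand of the gene.
MMP7: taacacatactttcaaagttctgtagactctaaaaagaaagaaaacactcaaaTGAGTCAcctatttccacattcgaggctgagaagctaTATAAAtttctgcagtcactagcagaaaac
MMP10: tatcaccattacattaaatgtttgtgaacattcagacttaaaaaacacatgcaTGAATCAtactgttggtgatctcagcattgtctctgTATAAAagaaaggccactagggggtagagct
MMP14: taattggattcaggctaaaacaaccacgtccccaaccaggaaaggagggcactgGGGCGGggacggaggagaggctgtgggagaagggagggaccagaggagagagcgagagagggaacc
ADAMTS2: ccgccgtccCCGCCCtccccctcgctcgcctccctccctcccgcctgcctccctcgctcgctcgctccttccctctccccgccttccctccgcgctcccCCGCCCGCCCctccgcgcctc
ADAMTS20: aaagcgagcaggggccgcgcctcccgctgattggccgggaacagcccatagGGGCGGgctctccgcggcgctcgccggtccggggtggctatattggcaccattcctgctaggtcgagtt
The windows lie at chr11:102530748-102530867 (minus strand, MMP7), chr11:102780629-102780748 (minus strand, MMP10), chr14:22836465-22836584 (plus strand, MMP14), chr5:179345462-179345581 (minus strand, ADAMTS2) and chr12:43552204-43552323 (minus strand, ADAMTS20). The gene as drawn in the deposited table began 6 bases inside the MMP7 window and 28 bases inside the MMP14 window. In both MMP7 and MMP10 the TGANTCA match began 67 bases before the start, and TATAAA began 30 and 31 bases before it. TGANTCA was found in 4 genes (MMP7, MMP10, MMP20 and ADAMTS12) and in 3.34% of all 35116 promoter entries of that length. The middle base was G in MMP7 and A in MMP10, MMP20 and ADAMTS12. TATAAA was found in 6 genes (MMP7, MMP8, MMP10, MMP20, MMP21 and MMP26) and in 3.87% of all entries. GGGCGG or CCGCCC was found in 16 genes, among them MMP14, MMP24, TIMP1, ADAMTS2, ADAMTS3 and ADAMTS20, and in 34.0% of all entries. These matches describe the letters of the window only.

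Counts on genes totalled between 29412656 and 31513519 in the 4 libraries, and the TMM factors that scale them lay between 0.971 and 1.02. Together the 46 genes held 0.427% and 0.438% of the control counts and 0.595% and 0.604% of the Erastin counts. Glial markers were sparse in all libraries, with AQP4 at 0 and S100B and SOX2 at 6 counts or fewer. GFAP had 46 and 41 counts in control and 69 and 81 in Erastin libraries, and OLIG2 had 88 and 79 against 67 and 59. The summed glial level of 46.2 and 35.2 CPM (counts scaled to a shared library size) in control came mostly from NES (41.8 and 31.3 CPM). In Erastin libraries it was 8.19 and 7.16 CPM, with NES at 3.51 and 2.45 CPM. The summed level of 5 mesenchymal markers was 9383 and 9783 CPM in control and 3269 and 3478 CPM in Erastin libraries, with FN1 at 151697 and 168464 against 14138 and 16332 counts. Leukocyte markers summed to between 0.612 and 1.21 CPM and epithelial markers to between 0.164 and 0.547 CPM. Endothelial markers summed to 12.5 and 14.8 CPM in control and 5.25 and 6.97 CPM in Erastin libraries. Among them PECAM1 and KDR were lower, but VWF went from 4 and 4 to 17 and 32 counts. Neuronal markers summed to 57.6 and 55.6 CPM against 76.4 and 91.7 CPM. Most of the neuronal sum was MAP2 (53.3 and 51.9 against 73.1 and 87.7 CPM), while SYP was lower (54 and 45 against 38 and 32 counts). The part of these shifts in the results below was not tested, and in bulk RNA fewer cells of a kind and less RNA per cell cannot be told apart.

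Enough counts for a test were present for 28 of the 46 genes, 11 MMPs, 13 ADAMTS proteases and all 4 TIMPs. At an adjusted p under 0.05 and an absolute log2 fold change of 1 or more (edgeR quasi-likelihood test over 16751 genes), 4 genes rose after Erastin and 7 fell. The shares were 14.3% and 25.0% of the tested genes of these families, beside 6.24% and 9.34% of all tested genes, or 15.6% in either direction. MMP19, MMP24, ADAMTS1 and ADAMTS5 rose, and MMP17, TIMP2, ADAMTS2, ADAMTS3, ADAMTS12, ADAMTS18 and ADAMTS20 fell. At the same adjusted p but a smaller fold change, a further 6 of the 28 genes were higher and 3 were lower, beside 2846 and 2413 of the 16751 tested genes. At this p and any fold change, 10 of the 28 genes were higher and 10 lower, beside 23.2% and 23.7% of all tested genes. For 12 of the 28 genes both Erastin levels exceeded both control levels, and for 11 both were lower, beside 36.7% and 36.9% of all tested genes. The median log2 fold change was 0.16 over the 28 genes and −0.003 over all tested genes. By family it was 0.24 for the MMPs, −0.55 for the ADAMTS proteases and −0.39 for the TIMPs.

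**Figure D1:**
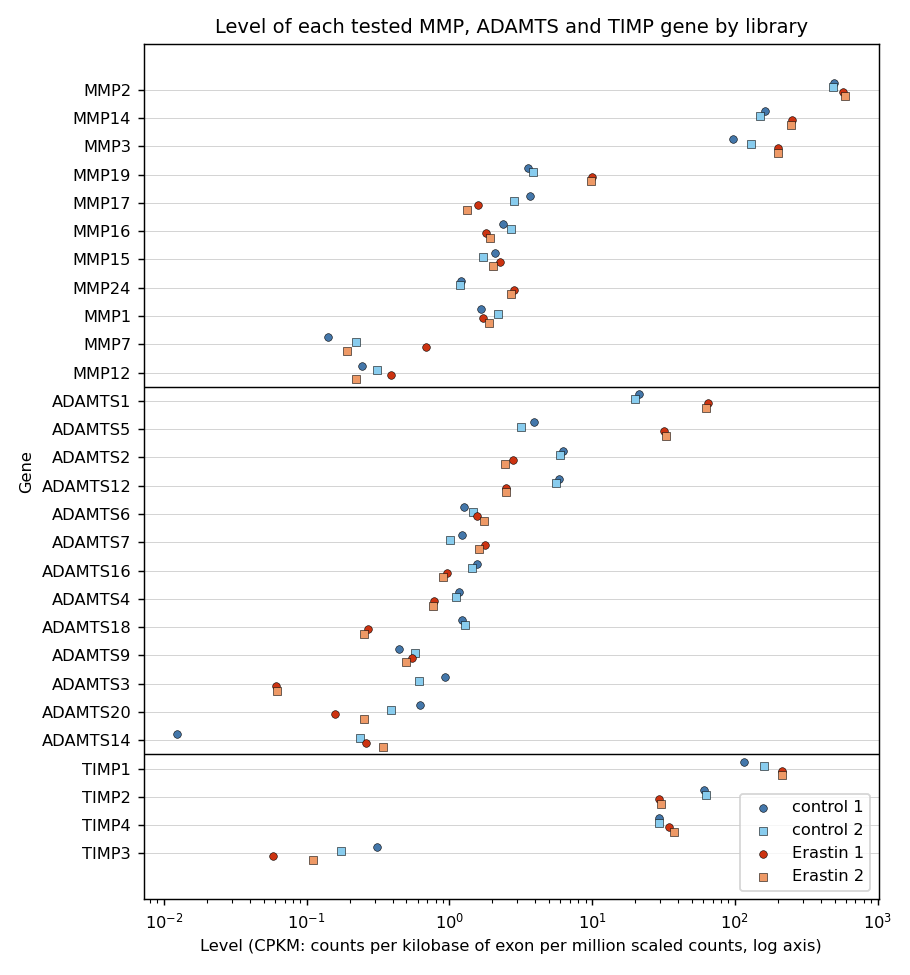
Level of the 28 tested genes in each library, as CPM per kilobase of exon (CPKM) on a log axis, with circles for replicate 1 and squares for replicate 2, blue for control and red or orange for Erastin. MMP2, MMP14, MMP3 and TIMP1 lie highest, ADAMTS5 moves furthest to the right and ADAMTS3 furthest to the left in the Erastin libraries.

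Gelatinases degrade denatured collagen and the type IV collagen of basement membranes. MMP2 (ENSG00000087245, GRCh38 chr16:55389700-55506691) had the highest level per exon length of all 46 genes, at 497 and 487 CPKM (CPM per kilobase of exon) in control and 572 and 593 CPKM in Erastin libraries. By counts it ranked 27 and 28 among all genes without Erastin and 16 and 15 with it. Its counts were 74972 and 74569 in control and 84462 and 91888 in Erastin libraries. Both Erastin libraries lay above both controls, by a small margin. Levels are given from here on as the mean ± SD of the 2 libraries of a group (n = 2), in CPM. The level of MMP2 was 2426 ± 36.4 CPM in control and 2874 ± 71.2 CPM with Erastin, a log2 fold change of 0.24 (SE 0.0609, adjusted p = 0.00601, edgeR), which is under the fold threshold. MMP9, the other gelatinase, had 0 and 1 counts in control and 1 and 2 counts in Erastin libraries. These are under the limit of 3 counts that a count of 0 allows in a library (0.0952 to 0.102 CPM, counting error only), so MMP9 was not detectable at this depth.

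Among the membrane-type MMPs, MMP24 rose, MMP17 fell, and MMP14 was higher by less than the fold threshold. MMP14 (ENSG00000157227, chr14:22836557-22849027), the main cell surface activator of the MMP2 precursor, had 22241 and 20829 counts in control and 33342 and 34582 in Erastin libraries. The groups did not overlap and lay far apart against their spread. From 699 ± 40.2 CPM in control its level reached 1108 ± 9.97 CPM with Erastin, a log2 fold change of 0.66 (SE 0.0655, adjusted p = 6.3e-06, edgeR).

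MMP24 (ENSG00000125966, chr20:35226654-35277000), a membrane-type MMP known from the nervous system, had 162 and 164 counts in control and 373 and 374 in Erastin libraries. Replicates were almost equal within each group and the groups lay apart. Its level was 5.29 ± 0.0133 CPM in control and 12.2 ± 0.401 CPM with Erastin, with a log2 fold change of 1.20 (SE 0.165, adjusted p = 8.96e-05, edgeR). MMP24OS, on the opposite strand, shares 18.1% of the exon bases of MMP24 and had 2285 and 2098 counts in control and 3748 and 3692 in Erastin libraries. The counting was unstranded and left out reads that matched more than 1 gene, so reads on the shared bases were counted for neither gene.

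MMP17 (ENSG00000198598, chr12:131828393-131851783), which is held at the membrane by a lipid anchor, had 446 and 351 counts in control and 189 and 166 in Erastin libraries. Both Erastin libraries were lower than both controls. The level went from 12.9 ± 2.32 to 5.80 ± 0.732 CPM, with a log2 fold change of −1.16 (SE 0.185, adjusted p = 0.000297, edgeR). Without control replicate 1 the log2 fold change was −0.96, under the fold threshold. MMP16 was lower at adjusted p = 0.00557 with a log2 fold change of −0.46, and MMP15 overlapped between the groups (280 and 236 counts against 298 and 282). MMP25, the remaining membrane-type gene, had 4 to 15 counts a library and was not tested.

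MMP19 had the largest change among the MMP genes. MMP19 (ENSG00000123342, chr12:55835433-55842966), a secreted protease that can cut basement membrane proteins, had 510 and 563 counts in control and 1403 and 1432 in Erastin libraries. Erastin libraries held more than either control, with little spread within each group. The level rose from 17.4 ± 1.02 to 46.2 ± 0.941 CPM, with a log2 fold change of 1.41 (SE 0.103, adjusted p = 5.06e-07, edgeR). TMEM198B on the opposite strand shares 17.4% of its exon bases and had 779 and 1079 counts in control and 690 and 694 in Erastin libraries, so its counts were not higher with Erastin.

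Stromelysins cut proteoglycans, laminin and fibronectin and can activate other MMP precursors. MMP3 (ENSG00000149968, chr11:102835801-102843803) had 6126 and 8251 counts in control and 12203 and 12846 in Erastin libraries. Control replicate 1 was the lowest of the 4 and the control libraries differed more from each other than the Erastin libraries did. Its level was 233 ± 46.2 CPM in control and 408 ± 0.610 CPM with Erastin, a log2 fold change of 0.81 (SE 0.105, adjusted p = 5.98e-05, edgeR) that is under the fold threshold. Without control replicate 2 it was 1.02 and passed both thresholds, and without control replicate 1 it was 0.62.

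MMP3 belongs to a cluster of 9 MMP genes on chromosome 11 (chr11:102520508-102955734, 435227 bases), which lie in the order MMP7, MMP20, MMP27, MMP8, MMP10, MMP1, MMP3, MMP12 and MMP13. Only MMP3 exceeded 2.21 CPKM in any library, with 97.8 and 130 CPKM in control and 199 and 200 CPKM in Erastin libraries. MMP20, MMP27 and MMP13 were at 0 in all 4 libraries. MMP1, the interstitial collagenase, lies next to MMP3 and had 100 and 135 counts in control and 101 and 118 in Erastin libraries. The MMP1 groups overlapped, and its log2 fold change of −0.10 (SE 0.257, adjusted p = 0.794, edgeR) did not pass. MMP12, the macrophage elastase, on the other side of MMP3, had 14 and 18 counts against 22 and 13 and overlapped as well. MMP7, matrilysin, had 10 and 16 counts in control and 48 and 14 in Erastin libraries. Its log2 fold change of 1.27 did not pass (adjusted p = 0.146, edgeR) and rested on Erastin replicate 1. Without Erastin replicate 2 it was 1.92 (adjusted p = 0.0236), and the lowest value with a library left out was 0.08. MMP8 and MMP10 had 8 counts or fewer in every library.

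**Figure D2:**
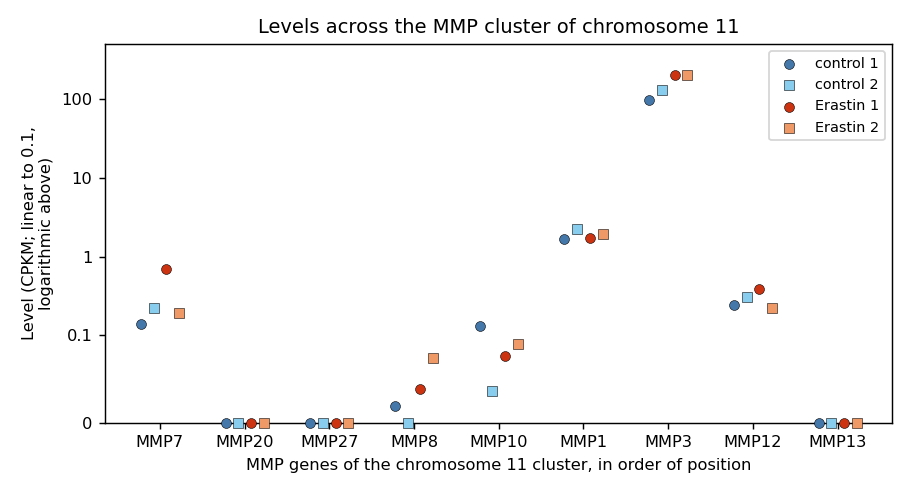
Level of the 9 MMP genes of the chromosome 11 cluster in each library, in order of position, in CPKM on an axis that is linear to 0.1 and logarithmic above, with circles for replicate 1 and squares for replicate 2. MMP3 stands above 97 CPKM in all libraries, MMP1 between 1.66 and 2.21 CPKM, and MMP20, MMP27 and MMP13 at 0.

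The ADAMTS proteases that cut proteoglycans changed in opposite directions, with ADAMTS5 and ADAMTS1 higher and ADAMTS20 lower. ADAMTS5 (ENSG00000154736, chr21:26917912-26966513), an aggrecan-cleaving enzyme, had 1086 and 889 counts in control and 8580 and 9377 in Erastin libraries. Every Erastin count was many times every control count. Its level rose 9.13-fold, from 32.1 ± 4.88 to 293 ± 8.19 CPM, with a log2 fold change of 3.19 (SE 0.0977, adjusted p = 5.79e-10, edgeR).

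ADAMTS1 (ENSG00000154734, chr21:26835747-26845409), which cuts versican, had 4581 and 4411 counts in control and 13616 and 14036 in Erastin libraries. The groups lay far apart, and replicates were close to each other. The level rose 3.09-fold, from 146 ± 5.53 to 451 ± 6.01 CPM, with a log2 fold change of 1.63 (SE 0.0662, adjusted p = 4.06e-09, edgeR). ADAMTS1 and ADAMTS5 are neighbours on the minus strand of chromosome 21, with 72502 bases between them, and were the only ADAMTS genes that rose past both thresholds. Leaving out any library kept ADAMTS5 between 3.03 and 3.35 and ADAMTS1 between 1.58 and 1.66 on the log2 scale. Per exon length ADAMTS5 stood at 0.185 and 0.157 of the ADAMTS1 level in control and at 0.491 and 0.521 of it in Erastin libraries.

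ADAMTS20 (ENSG00000173157, chr12:43353866-43551921), a large versican-cleaving member, had 137 and 88 counts in control and 34 and 57 in Erastin libraries. The groups did not overlap, but the replicates of each were uneven. It went from 3.66 ± 1.17 to 1.48 ± 0.479 CPM, with a log2 fold change of −1.30 (SE 0.35, adjusted p = 0.00917, edgeR). The call was lost without control replicate 1 (−0.94, adjusted p = 0.0695) and without Erastin replicate 1 (−1.01, adjusted p = 0.0537). ADAMTS4, a second aggrecanase, had 368 and 355 counts against 242 and 248 and was lower by less than the fold threshold (log2 fold change −0.55, adjusted p = 0.0110, edgeR). Of the 31-base words of its exons, 13.2% also occur elsewhere on the chromosomes, and reads that matched several places were not counted. ADAMTS9 overlapped between the groups (145 and 192 counts against 174 and 167), ADAMTS8 had counts in 1 library only, and ADAMTS15 was at 0 in all 4 libraries.

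Procollagen N-proteinases remove the amino-terminal propeptide before collagen fibrils form. Of the 3, 2 fell past both thresholds (66.7%, beside 9.34% of all tested genes) and 0 rose (beside 6.24%). ADAMTS3 (ENSG00000156140, chr4:72280969-72569386), which also processes the lymphatic growth factor VEGFC, had 205 and 136 counts in control and 13 and 14 in Erastin libraries. This was the largest fall among the tested genes of the families. Its level went from 5.54 ± 1.65 to 0.440 ± 0.00778 CPM, 12.5-fold lower, with a log2 fold change of −3.64 (SE 0.354, adjusted p = 5.58e-06, edgeR).

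ADAMTS2 (ENSG00000087116, chr5:179110851-179345430), the main processing enzyme of type I procollagen, had 1669 and 1613 counts in control and 725 and 670 in Erastin libraries. The Erastin counts were the lower in both replicates. The level went from 53.3 ± 1.88 to 22.8 ± 2.06 CPM, with a log2 fold change of −1.23 (SE 0.101, adjusted p = 1.43e-06, edgeR). ADAMTS14, the third enzyme of the group, had 2 and 39 counts in control and 41 and 57 in Erastin libraries. Control replicate 1 stood apart from the other 3 libraries, and the log2 fold change of 1.26 (SE 0.762, adjusted p = 0.200, edgeR) did not pass. Without control replicate 2 it was 4.52 (adjusted p = 1.05e-05), without a filter on low counts it was 1.26 (adjusted p = 0.0221), and the lowest value with a library left out was 0.34.

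ADAMTS12 and ADAMTS7, which share a mucin-like domain and cut cartilage oligomeric matrix protein, moved apart. ADAMTS12 (ENSG00000151388, chr5:33523535-33892192) had 1750 and 1698 counts in control and 731 and 761 in Erastin libraries. Replicates were close and the groups were well apart. It fell from 55.9 ± 1.82 to 24.3 ± 0.155 CPM, with a log2 fold change of −1.20 (SE 0.0914, adjusted p = 7.33e-07, edgeR). Of the 31-base words of the ADAMTS12 exons, 13.6% also occur on alternate scaffolds of the genome. Whether this affected its counts was not tested. ADAMTS7 was higher by less than the fold threshold, with 288 and 243 counts against 408 and 393 (log2 fold change 0.60, adjusted p = 0.00829, edgeR). Of the 31-base words of the ADAMTS7 exons, 39.2% also occur elsewhere on the chromosomes, and reads with several matches were not counted.

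ADAMTS18 (ENSG00000140873, chr16:77247813-77435114), a member of the group of ADAMTS16 to ADAMTS19, had 250 and 267 counts in control and 54 and 53 in Erastin libraries. Both Erastin counts were far under both control counts. Its level fell 4.79-fold, from 8.39 ± 0.296 to 1.75 ± 0.0839 CPM, with a log2 fold change of −2.26 (SE 0.223, adjusted p = 6.27e-06, edgeR). ADAMTS16 was lower by less than the fold threshold (278 and 261 counts against 170 and 167, log2 fold change −0.67, adjusted p = 0.00945, edgeR). ADAMTS6, a protease linked to fibrillin microfibrils, had 334 and 392 counts against 403 and 467, and its log2 fold change of 0.27 did not pass (adjusted p = 0.151, edgeR).

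**Figure D3:**
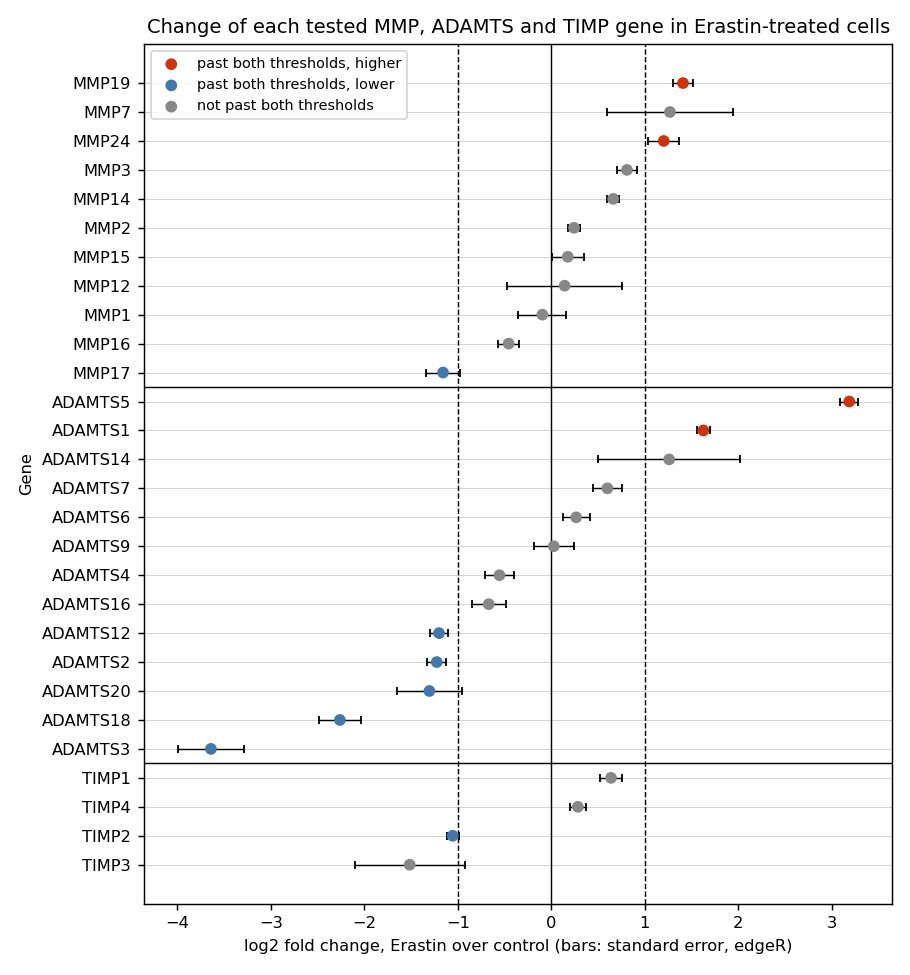
Log2 fold change, Erastin over control, of each of the 28 tested genes, with bars for the standard error, dashed lines at a log2 fold change of 1 in size, and colours for genes past both thresholds. ADAMTS5 at 3.19 and ADAMTS3 at −3.64 are the ends of the range, and 4 genes are coloured as higher and 7 as lower.

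Of the inhibitors, TIMP2 fell, TIMP1 and TIMP4 were higher by less than the fold threshold, and TIMP3 was low in all libraries. TIMP2 (ENSG00000035862, chr17:78852977-78925387) had 10554 and 11083 counts in control and 4968 and 5402 in Erastin libraries. Both Erastin libraries held far fewer counts than either control. Its level went from 351 ± 8.21 to 169 ± 4.12 CPM, 2.08-fold lower, with a log2 fold change of −1.05 (SE 0.0650, adjusted p = 1.25e-07, edgeR). It lies close to the fold threshold, and with any library left out it stayed between −1.08 and −1.03.

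TIMP1 (ENSG00000102265, chrX:47582313-47586789), a broad MMP inhibitor that inhibits MMP14 poorly, had 5455 and 7640 counts in control and 9867 and 10417 in Erastin libraries. Control replicate 1 was the lowest here too, as for MMP3, and both Erastin libraries lay above both controls. The level was 212 ± 47.8 CPM in control and 331 ± 1.17 CPM with Erastin, a log2 fold change of 0.64 (SE 0.115, adjusted p = 0.000697, edgeR). TIMP4 (ENSG00000157150, chr3:12153051-12159351), which inhibits MMP2 among others, had 1495 and 1521 counts in control and 1702 and 1959 in Erastin libraries. Both Erastin counts were higher, with a level of 48.9 ± 0.0490 CPM against 59.6 ± 3.85 CPM and a log2 fold change of 0.28 (SE 0.0826, adjusted p = 0.0137, edgeR). With a library left out the log2 fold change of TIMP4 lay between 0.22 and 0.35. It missed the p threshold without Erastin replicate 2.

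TIMP3 (ENSG00000100234, chr22:32801701-32863043), the inhibitor that binds to the matrix and also blocks ADAMTS4 and ADAMTS5, had 44 and 25 counts in control and 8 and 16 in Erastin libraries. The groups did not overlap at these low counts. The level was 1.12 ± 0.448 CPM in control and 0.388 ± 0.171 CPM with Erastin, and the log2 fold change of −1.52 (SE 0.588, adjusted p = 0.0528, edgeR) did not pass the p threshold. It passed without control replicate 2 (−1.88, adjusted p = 0.0318), without Erastin replicate 2 (−2.05, adjusted p = 0.0440) and without a filter on low counts (−1.52, adjusted p = 0.0244). It also passed with counts thinned to the smallest library (adjusted p = 0.0391) and with pairs of reads in place of reads (adjusted p = 0.0316). It did not pass with DESeq2 (adjusted p = 0.140) or, in edgeR, with RLE factors (adjusted p = 0.0518). Library totals (adjusted p = 0.0578, edgeR) and the replicate block (adjusted p = 0.0657, edgeR) did not bring it past either. Nor did it pass without control replicate 1 (−1.04) or without Erastin replicate 1 (−1.13).

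Summed per exon length, the MMP genes stood at 773 and 782 CPKM in control and 1043 and 1059 CPKM in Erastin libraries, and the TIMP genes at 207 and 253 against 278 and 283 CPKM. The sum over the MMPs divided by the sum over the TIMPs was 3.73 and 3.09 in control and 3.75 and 3.74 in Erastin libraries, so control replicate 1 lay next to both Erastin libraries. Within the TIMPs the makeup differed more than the sum. TIMP1 made up 55.9% and 63.1% of the TIMP level in control and 77.0% and 75.9% in Erastin libraries, and TIMP2 made up 29.6% and 25.1% against 10.6% and 10.8%. The level of MMP14 over that of TIMP2 was 2.66 and 2.37 in control and 8.47 and 8.08 in Erastin libraries, and that of MMP2 over TIMP2 was 8.11 and 7.68 against 19.4 and 19.4. In both ratios the Erastin libraries were well above the controls. The ADAMTS genes summed to 45.7 and 42.9 CPKM in control and 108 and 108 CPKM in Erastin libraries. ADAMTS5 made up 8.58% and 7.36% of the ADAMTS level in control and 29.4% and 30.6% in Erastin libraries, while ADAMTS2 went from 13.7% and 13.9% to 2.58% and 2.27%. These sums and ratios are descriptions of mRNA and were not tested, since permuting 4 libraries exactly gives no two-sided p under 0.333.

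**Figure D4:**
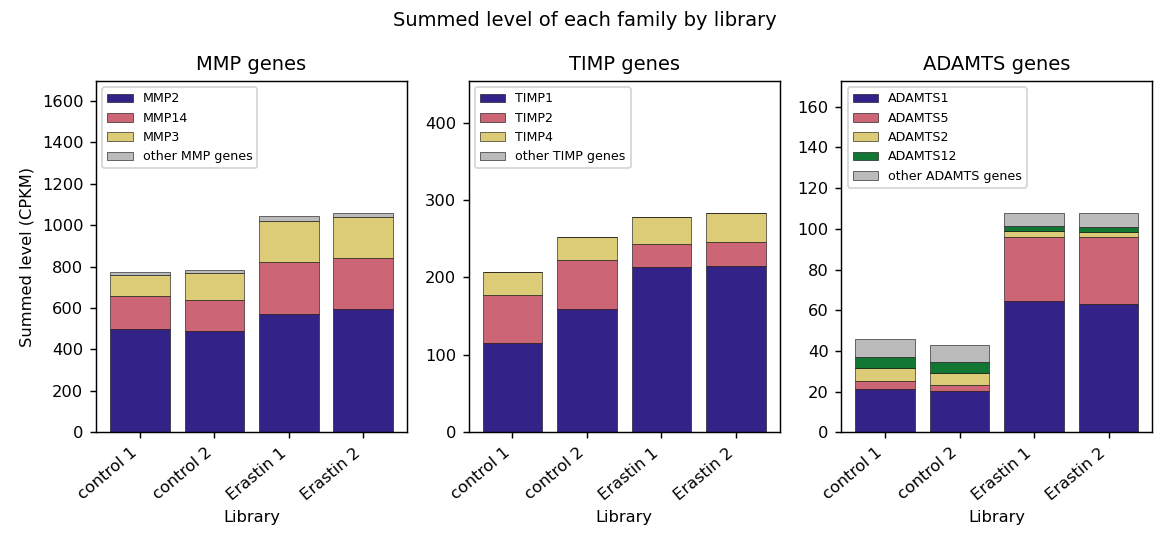
Summed level of the MMP, TIMP and ADAMTS genes in each library in CPKM, stacked by gene, with axes that start at 0 and differ between the panels. MMP2 takes 54.9% to 64.3% of the MMP sum, and TIMP1 takes 55.9% to 77.0% of the TIMP sum, the larger part in every library. ADAMTS1 and ADAMTS5 make up most of the taller Erastin bars of the ADAMTS panel.

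Too few counts for a test were found for 18 of the 46 genes. Of these, 9 were at 0 in all 4 libraries: MMP11, MMP13, MMP20, MMP23B, MMP26, MMP27, MMP28, ADAMTS15 and ADAMTS19. A count of 0 allows up to 3 counts in a library and covers counting error only. Of these, 3 genes have copies of their sequence elsewhere. All 31-base words of MMP11 (100%) and 94.5% of those of MMP28 also occur on the 261 alternate scaffolds of the genome, and 86.5% of those of MMP23B occur elsewhere on the chromosomes. Reads that matched more than 1 place had been left out of the counts, and CHCHD10, which overlaps MMP11, was at 0 too. Whether this made the zeros was not tested. The other 9 genes, MMP8, MMP9, MMP10, MMP21, MMP25, ADAMTS8, ADAMTS10, ADAMTS13 and ADAMTS17, had at most 15 counts in a library. Among them ADAMTS10, which binds fibrillin microfibrils, had 0 and 0 counts in control and 14 and 2 in Erastin libraries, and ADAMTS13, the von Willebrand factor-cleaving protease, had counts in 1 library only. Without a filter on low counts ADAMTS10 passed both thresholds (adjusted p = 0.0391, edgeR), which rested on Erastin replicate 1.

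Genes that act with these proteases were taken from 8 lists with 93 genes, of which 74 were tested. Of these, 3 rose past both thresholds and 19 fell, 4.05% and 25.7% of those tested, beside 6.24% and 9.34% of all tested genes. The median log2 fold change was −0.38 over the 74 genes and −0.003 over all tested genes.

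A list of proteoglycans, hyaluronan-binding proteins and other matrix proteins was lower in most cases. It includes ADAMTS substrates such as versican but is not limited to such substrates. Of 12 genes tested from this list, 8 fell (66.7%, beside 9.34% of all tested genes) and 0 rose (beside 6.24%). Their median log2 fold change was −1.22. VCAN, which encodes versican, had 11598 and 12503 counts in control and 5187 and 5589 in Erastin libraries. Both Erastin counts were the lower, with a log2 fold change of −1.15 (SE 0.0662, adjusted p = 6.79e-08, edgeR). CSPG4, the NG2 proteoglycan of glioma cells, had 7646 and 6352 counts against 1513 and 1662, a log2 fold change of −2.13 (SE 0.0951, adjusted p = 8.32e-09, edgeR). MATN2, MATN3, HAPLN3, BGN, HSPG2 and SDC1 also fell, with log2 fold changes from −2.21 for MATN2 to −1.07 for SDC1. BGN did not pass without control replicate 2 (−0.88, adjusted p = 0.0946), and SDC1 stood just under the fold threshold without control replicate 1.

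In the plasminogen system, whose protease plasmin activates several MMP precursors, 1 of 7 tested genes rose and 0 fell past both thresholds, a share of 14.3% beside 15.6% of all tested genes. SERPINB2, an inhibitor of the urokinase-type activator, had 544 and 547 counts in control and 2297 and 2700 in Erastin libraries, a log2 fold change of 2.20 (SE 0.0933, adjusted p = 5.57e-09, edgeR). Both Erastin counts were far above both control counts. PLAU, which encodes the urokinase-type activator, had 3196 and 3396 counts against 3682 and 3692 and did not pass (log2 fold change 0.17, adjusted p = 0.0630, edgeR).

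Other MMP inhibitors and clearance receptors gave 1 fall and 0 rises among 7 tested genes, again 14.3% beside 15.6%. SPOCK3, a testican that inhibits membrane-type MMP activation, had 70 and 62 counts against 12 and 32 (log2 fold change −1.58, adjusted p = 0.0145, edgeR), and did not pass without Erastin replicate 1 (adjusted p = 0.0734). RECK, a membrane-anchored MMP inhibitor, had 948 and 907 counts in control and 600 and 679 in Erastin libraries and was lower by less than the fold threshold (−0.53, adjusted p = 0.00175, edgeR). LRP1, the receptor that takes up MMP and TIMP complexes, had 63746 and 61544 counts against 70139 and 70083 (0.17, adjusted p = 0.0449, edgeR). Of the 7 convertases and inducers 0 passed both thresholds, beside the same 15.6%. Among them FURIN, which removes the propeptide of membrane-type MMPs and ADAMTS proteases, had 7482 and 7222 counts against 6906 and 7403, and BSG, the inducer CD147, had 18690 and 19571 against 16806 and 18697. After scaling, FURIN overlapped between the groups and BSG did not, and neither passed, with log2 fold changes of −0.03 (adjusted p = 0.715) and −0.10 (adjusted p = 0.217, edgeR).

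Among 18 transcription regulators known to act on MMP genes, 4 fell (22.2%, beside 9.34% of all tested genes) and 0 rose (beside 6.24%). FOS, a subunit of AP-1, had 3161 and 3228 counts in control and 514 and 452 in Erastin libraries, a log2 fold change of −2.72 (SE 0.0972, adjusted p = 1.54e-09, edgeR). FOSB, a second AP-1 subunit, had 404 and 425 counts against 124 and 123 (−1.74, adjusted p = 5.59e-06). The other called genes were ETV4, an ETS factor, at −1.38 and SMAD3, a mediator of TGF-β signalling, at −1.37. At an adjusted p under 0.05 but a smaller fold change, 5 regulators were higher and 8 lower. The 5 higher ones were RELA (0.62) and NFKB1 (0.54), subunits of NF-κB, the AP-1 subunits JUND (0.59) and JUN (0.19), and CEBPB (0.25). Of the 8 lower ones, FOSL1 (−0.28), FOSL2 (−0.38) and JUNB (−0.38) also belong to AP-1.

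Related protease families were also measured. Of 10 tested ADAM proteases 2 fell (20%, beside 9.34% of all tested genes) and 0 rose, namely ADAM8 with 975 and 846 counts against 95 and 97 (log2 fold change −3.24, adjusted p = 1.2e-08, edgeR) and ADAM12 at −1.12. Of 3 tested ADAMTS-like proteins, which resemble ADAMTS proteases but lack the catalytic domain, ADAMTSL1 (−1.80) and THSD4 (−1.31) fell, 66.7% of those tested beside 9.34% of all tested genes. Of 10 other matrix proteases, 2 rose and 2 fell, 20% each way beside 6.24% and 9.34% of all tested genes. CTSK, the collagen-cutting cathepsin K, had 7577 and 8871 counts in control and 31597 and 32714 in Erastin libraries, a log2 fold change of 1.98 (SE 0.0769, adjusted p = 2.93e-09, edgeR), and CTSS, cathepsin S, was at 1.25. HTRA1, a secreted serine protease, was at −1.37 and PRSS23 at −1.45.

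**Figure D5:**
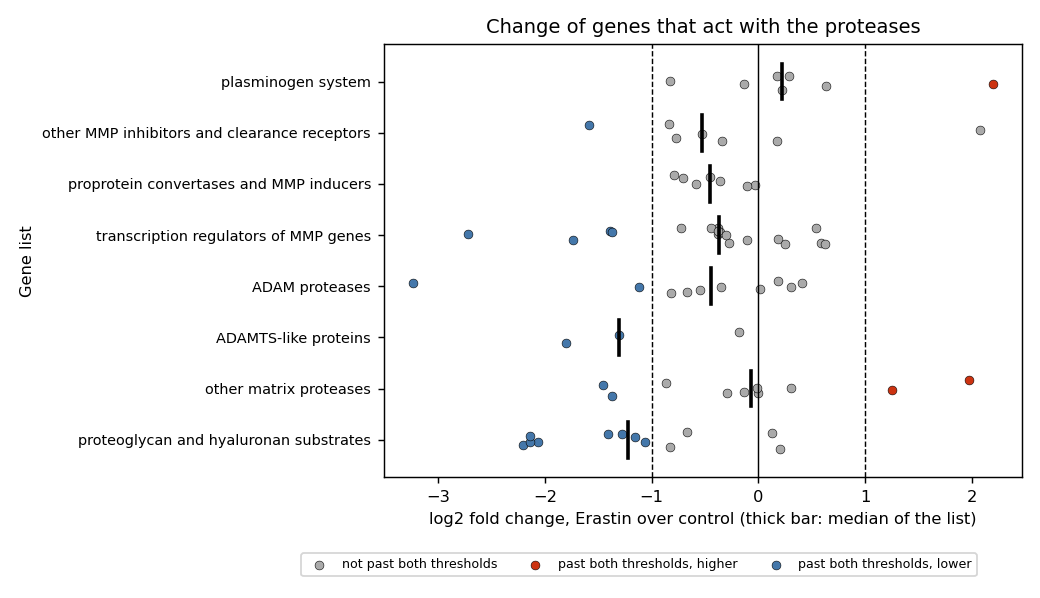
Log2 fold change, Erastin over control, of the 74 tested related genes by list, with 1 point a gene, a thick bar at the median of each list, dashed lines at 1 in size, and red or blue for genes past both thresholds. The list labelled as proteoglycan and hyaluronan substrates has 8 blue points and no red point, and SERPINB2, CTSK and CTSS are the 3 red points.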

How the data were processed

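Total RNA of control and Erastin-treated U87MG cells was sequenced by the authors, and they deposited raw counts of reads per gene, without normalization. Per the file headers the table was written by featureCounts 2.0.3 with Ensembl release 90 of GRCh38, whereas the submitters' notes list HISAT2 2.1.0 and featureCounts 2.0.4, and the methods name htseq-count. Counting was unstranded, left out reads that matched several places or genes, and counted each read of a pair. No deposited value had a fraction, as an estimated count can have. Gene symbols and types came from GENCODE release 44, which gave 57532 of the 58302 genes a symbol. Totals were between 29412656 and 31513519 counts. Since reads amplified by PCR carried no molecular identifiers, intervals and limits cover counting error only.

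The test used edgeR 4.0.16 in R 4.3.3. Its filterByExpr function (minimum count 10) kept 16751 genes, TMM gave the scaling, and the quasi-likelihood test with Benjamini-Hochberg adjustment over all tested genes was two-sided. The thresholds, an adjusted p under 0.05 and an absolute log2 fold change of 1 or more, were those of the study's methods. The SE of a log2 fold change was derived from this test, as its absolute value divided by the square root of the F statistic. The biological coefficient of variation was 10.3%. CPM are counts scaled to a shared library size by TMM, and CPKM are CPM per kilobase of the exon length in the table. Alternatives were DESeq2 1.42.0, RLE factors, library totals, other low-count filters, thinned counts, a replicate block and each library left out, and pairs of reads (counts divided by 2), chosen after seeing the data.

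Full values are given for genes of the families past both thresholds, TIMP1 to TIMP4, MMP2, MMP9, MMP14 and the 6 tested genes with the highest level per length. Of the related genes, those past both thresholds (at most 8 a list) and a few fixed genes are named, of which 1 is not reported here. The genes and lists were chosen with earlier results of these data known. Repeated sequence was measured as the share of 31-base words in all exons of a gene, merged as the deposited table gives them, that occur elsewhere. ChIP-seq and HiChIP data were not analysed here.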

Additional observations from a re-analysis of the deposited data

How the results depend on the processing

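Over 332 values of single genes of the families under the alternatives, 314 kept their direction and whether they passed both thresholds together. A gene that crossed only 1 threshold, without passing both, still counted among these. MMP2, TIMP4, ADAMTS4 and ADAMTS7 were such genes, and each missed the p threshold without 1 of the Erastin libraries. Of the 11 genes past both thresholds, 9 stayed past them under every alternative, and MMP17 and ADAMTS20 did not. The number of genes past both thresholds lay between 4 and 6 for higher and between 5 and 8 for lower, against 4 and 7. With the replicate block it was 5 and 7, with ADAMTS14 added at a log2 fold change of 1.73 (adjusted p = 0.0327, edgeR). The labels do not say that same-numbered libraries were prepared together, and their deviations from the group means had a correlation of 0.0203. DESeq2 called 903 genes higher and 1411 lower over all genes, of which 862 and 1374 were among those of edgeR. TMM, RLE and library totals put the median log2 fold change of all tested genes at −0.003, −0.0014 and 0.05.

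With 1 library left out, the lone library of a group was assumed to vary like the others. The number of related genes that rose then lay between 3 and 5, the 5 being without control replicate 2, where BCAN (1.10) and SPOCK2 (6.71) were added. The direction of 3 genes that had passed no threshold turned, with log2 fold changes between −0.15 and 0.22 for ADAMTS9, between −0.29 and 0.12 for MMP1 and between −0.33 and 0.50 for MMP12. TIMP3, MMP7 and ADAMTS14 had few counts, and their log2 fold changes varied with the library left out. The part of depth in this was not tested. With 2 libraries a group, p-values rest on a spread estimated across genes.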
